A study of Mus musculus with 2 samples.

Results

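The gene set described here holds Nfe2l2, which encodes the transcription factor Nrf2, its inhibitor Keap1, and 7 genes of the antioxidant response: Hmox1, Nqo1, Slc7a11, Gclc, Gclm, Txnrd1 and Srxn1. Its members are all rows of a table of gene activity that carry 1 of these 9 gene symbols, which gave 12 RefSeq entries of 24165 and 9 genes of 20128. The values come from untreated C2C12 myoblasts, an established mouse line of muscle precursor cells, grown to 80% confluency, with 4 plates of 10 cm used for each isolation of nuclei. The assay was GRO-seq, in which polymerases already engaged on the DNA are allowed to extend their transcripts with bromouridine in isolated nuclei, so that the captured RNA reports transcription rather than the amount of mRNA. There was a single condition, with 2 replicate libraries that the authors pooled before they computed activity.

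Nrf2 is held at a low level by Keap1, an adaptor that presents it to a Cul3 ubiquitin ligase for degradation. Oxidants and electrophiles modify cysteines of Keap1, Nrf2 then accumulates, pairs with a small MAF protein and binds the antioxidant response element (ARE) near genes for glutathione synthesis, thioredoxin reduction and detoxification. Because this switch acts on the protein, the transcription of Nfe2l2 and Keap1 says little about whether Nrf2 is active.

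Gene activity is given in RPKmM, the number of sense-strand reads from 1 kb downstream of the transcription start site (TSS) to the transcript end, per kilobase of mappable sequence and relative to sequencing depth. It is a level per length, so genes can be set side by side. The word Inactive stands in place of a value where the authors could not tell the read density from that of gene deserts. Each value is a pooled one without a standard deviation, no test between genes was possible, and the ranges given with ratios are only those allowed by rounding to 2 decimals. The number of reads behind each value is not in the table. Myoblast markers were active in 9 of 9 genes, from 0.55 RPKmM for Pax7 to 146.13 for Vim, with Myod1 at 2.39 and Des at 72.45. Markers of differentiated muscle were active too, in 8 of 8 genes, from 0.01 for Myh2 to 6.85 for Acta1 with a median of 0.88, and what share of the cells they came from was not tested. Macrophage markers were inactive in 4 of 4 genes with a row (Cd68 and Cd14 have none) and adipocyte markers in 3 of 3. The most active endothelial and hepatocyte markers stood at 0.01 and 0.02. Among all genes in the table, 68.7% were active.

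All 12 entries, and so all 9 genes, were called active, beside 70.2% of all entries and 68.7% of all genes in the table. The members spanned 193.8-fold (176 to 215 by rounding, and 118 with the least active entry of Txnrd1), from 0.05 RPKmM for Slc7a11, the cystine transporter, to 9.69 for the most active entry of Txnrd1, the cytosolic thioredoxin reductase. Ordered by their most active entry, the genes ran Txnrd1, Nfe2l2, Keap1, Gclc, Srxn1, Gclm, Nqo1, Hmox1 and Slc7a11. With the least active entry of each gene, Keap1 (5.09) came before Nfe2l2 (2.49) and the other places stayed. The widest gap between neighbours in the order by the most active entry was the lowest one, with Hmox1 6.20 times as active as Slc7a11, and the narrowest was that of Nfe2l2 over Keap1, 1.07-fold. Whether any of these steps exceeds the spread between libraries cannot be told from pooled values.

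Percentiles and quartiles below are among active entries unless all entries are named. Set against the 16957 active entries of the table, whose quartiles lay at 0.22, 0.87 and 1.99 RPKmM and whose top value was 5957 for the ribosomal RNA precursor Rn45s, the members did not sit together. Of the 12 entries, 7 lay above the upper quartile, 1 below the lower quartile and none between the median and the upper quartile. By gene, 4 of 9 lay above the upper quartile (Txnrd1, Nfe2l2, Keap1 and Gclc), and Srxn1, at 0.85, was just under the median. The median over the 12 entries was 2.30 RPKmM, and over the 9 genes it was 0.85, because the 2 genes with several entries, Txnrd1 and Nfe2l2, are also the most active. An activity of at least 1 was reached by 7 entries, beside 32.3% of all entries, and at least 5 by 5 entries, beside 5.41%. By gene, which counts Txnrd1 and Nfe2l2 once each, 4 of 9 reached 1, beside 31.6% of all genes, and 3 of 9 reached 5, beside 5.38%.

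**Figure D1:**
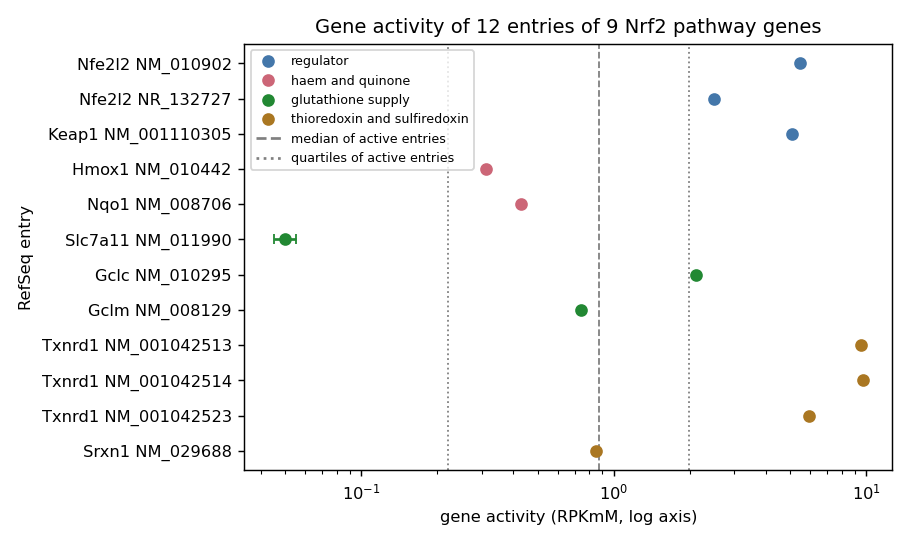
Gene activity in RPKmM (log axis) of each of the 12 RefSeq entries, coloured by role, with bars for the limits of rounding (visible only for Slc7a11) and lines at the median (0.87) and quartiles (0.22 and 1.99) of all active entries. Regulators and Txnrd1 lie right of the upper quartile, Hmox1 and Nqo1 between the lower quartile and the median, and Slc7a11 alone lies left of the lower quartile.

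**Figure D2:**
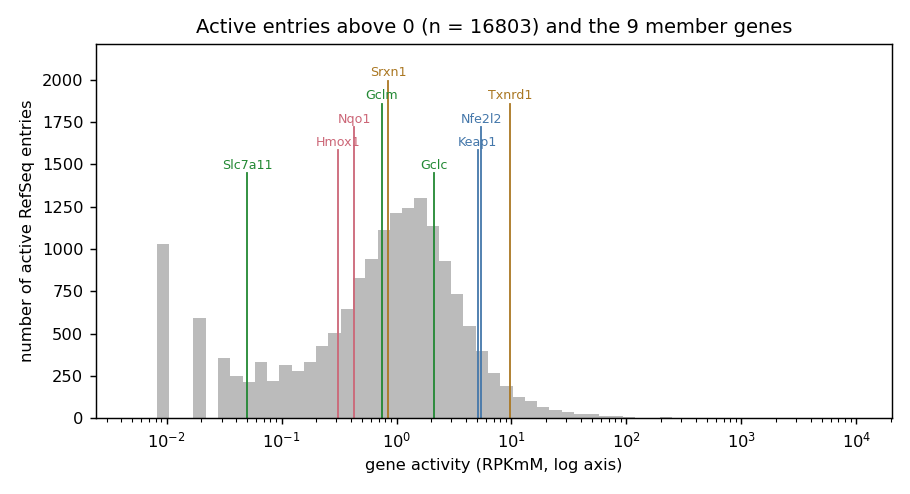
Number of active entries by gene activity in RPKmM (log axis), leaving out active entries that round to 0.00, with a line for the most active entry of each member gene in the colour of its role. The members run from 0.05 for Slc7a11, left of the main peak, to 9.69 for Txnrd1, right of it, on a scale that reaches 5957.

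The 2 regulators were among the more active genes. Nfe2l2 is on mm9 chr2:75513570-75542698, minus strand, with 5 exons in its annotated coding transcript, and its coding entry NM_010902 had 5.45 RPKmM, at percentile 93.3 of active entries. A second, noncoding entry of the gene, NR_132727, had 2.49 RPKmM (percentile 80.7), which is 2.19-fold lower (2.18 to 2.20 by rounding). Entries of the same gene can share reads, so the values are not independent. Keap1, at chr9:21034174-21043776 on the minus strand with 6 exons, had 5.09 RPKmM (percentile 92.6). The ratio of Nfe2l2 to Keap1 was 1.07 with the coding entry, the closest pair of neighbours among the 9 genes, but with the noncoding entry Keap1 was 2.04 times Nfe2l2.

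The genes of Nrf2's relatives, partners and competitors covered a wide range. Of 8 CNC, BACH and small MAF genes, 7 were active, with a median of 1.05 RPKmM, and 4 were at or above 0.87, the median of active entries. Of all genes in the table, 68.7% were active and 34.5% were at or above 0.87. Nfe2l1, which encodes the related factor Nrf1, had 20.89 RPKmM, 3.83 times Nfe2l2 (2.45 to 8.39 over the entries of both genes), and was the most active of the list. Nfe2, the erythroid member of the same family, had 0.06, so that Nfe2l2 was 90.8-fold higher (41.5 to 272.5 over the entries), and Nfe2l3 was inactive. Bach1, a repressor that competes for the same DNA element, had 3.05, which lies between the coding entry of Nfe2l2 (5.45) and the noncoding one (2.49). Of the small MAF genes, whose products pair with Nrf2 on DNA, Mafg had 2.82 RPKmM, also between the entries of Nfe2l2, Maff 1.05 and Mafk 0.79. The ratios to Nfe2l2 and to other members given here and below were chosen after the values were seen, and so were their ranges over entries.

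Genes of the Keap1 ligase and of Nrf2 turnover were active in 12 of 12 cases, beside 68.7% of all genes, with a median of 2.35 RPKmM, and 10 were at or above 0.87, beside 34.5%. The most active were Cand1, an exchange factor of cullin ligases, at 11.63, and Sqstm1, the autophagy receptor p62 that binds Keap1, at 11.18, which is 2.20 times Keap1. Cul3, the scaffold that Keap1 bridges to Nrf2, had 3.74, so that Keap1 was 1.36-fold higher. The lowest was Btrc at 0.84, a substrate adaptor of the ligase that acts on Nrf2 independently of Keap1.

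The best known inducible targets, Hmox1 and Nqo1, lay between the lower quartile and the median of active entries. Hmox1 encodes haem oxygenase 1, which opens the haem ring, and lies at chr8:77617490-77624495 on the plus strand with 5 exons. Its activity was 0.31 RPKmM, at percentile 28.8 of active entries and 2.81-fold under their median. Nqo1 encodes a quinone reductase that takes quinones to hydroquinones in a single step, and lies at chr8:109912125-109927106 on the minus strand with 6 exons. It had 0.43 RPKmM, at percentile 33.8 and 2.02-fold under the median, and was 1.39 times Hmox1. Among all entries, with inactive ones counted as 0, Hmox1 was at percentile 50.02 and Nqo1 at 53.6, the middle of the table.

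The closest relatives of both genes had higher values. Hmox2, the haem oxygenase not known for induction by Nrf2, had 1.88 RPKmM, 6.06 times Hmox1, and 0.73 in its other entry, 2.35 times Hmox1, while Nqo2 had 0.58, 1.35 times Nqo1. Downstream of Hmox1, biliverdin reductase A (Blvra) had 0.65 RPKmM, 2.10 times Hmox1. Blvrb, the other biliverdin reductase, had 0.28 and 0.22 in its entries, below Hmox1. Fth1, the ferritin heavy chain that stores the iron set free, had 8.70 and 4.63 in its entries, 28.1 and 14.9 times Hmox1. In the list of haem and iron genes, 10 of 10 with a row were active, with a median of 1.70 RPKmM and 7 at or above 0.87, beside 68.7% and 34.5% of all genes. Tfrc, the transferrin receptor, led the list at 9.52, and Slc40a1, the iron exporter ferroportin, was lowest at 0.19. Ftl1 has no row in the table.

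The 3 genes of glutathione supply were spread over 42.2-fold (38.3 to 47.0 by rounding). Slc7a11, at chr3:50168858-50247535 on the minus strand with 12 exons, encodes the light chain of the exchanger that brings in cystine. It had 0.05 RPKmM, between 0.045 and 0.055 before rounding, at percentile 14.7 and 17.4-fold under the median of active entries. Among all entries, with inactive ones counted as 0, it was at percentile 40.1. Activities under 0.1 are common in the table, since 18.5% of active entries have one, and Slc7a11 is the only member among them. Slc3a2, the heavy chain that Slc7a11 needs for its place in the membrane and that also serves other transporters, had 3.69, which is 73.8 times Slc7a11 (67.0 to 82.1 by rounding).

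Gclc and Gclm encode the catalytic and the modifier subunit of glutamate-cysteine ligase, the rate-limiting enzyme of glutathione synthesis. Gclc, at chr9:77602342-77642292 on the plus strand with 16 exons, had 2.11 RPKmM (percentile 76.6). Gclm, at chr3:121948475-121972902 on the plus strand with 7 exons, had 0.74 (percentile 45.8). The catalytic subunit was thus 2.85 times as active (2.83 to 2.88 by rounding) as its modifier. Gss, which completes glutathione, had the same value as Gclm, 0.74, and Gsr, which reduces the oxidised form with NADPH, had 1.03.

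Among 15 genes of glutathione synthesis and use with a row, 12 (80.0%) were active, with a median of 1.04 RPKmM, and 8 were at or above 0.87, beside 68.7% and 34.5% of all genes. Gpx4, the peroxidase of lipid hydroperoxides, was highest, with 3 entries from 4.61 to 18.60, followed by Gpx8 of the endoplasmic reticulum at 5.58. Gpx3, a secreted peroxidase, was lowest among the active ones at 0.13. Ggt1, Gpx2 and Gpx7 were inactive, and Gpx1 has no row.

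Txnrd1, at chr10:82296696-82360469 on the plus strand with 15 exons in its longest coding transcript, was the most active member. Its product reduces thioredoxin with NADPH. The entries NM_001042514, NM_001042513 and NM_001042523 had 9.69, 9.49 and 5.92 RPKmM, at percentiles 97.0, 96.9 and 94.1, and 514 active entries lay above the first. This was 11.1 times the median of active entries. The relatives were much lower, with Txnrd2 of mitochondria at 0.39 RPKmM and Txnrd3 at 0.45, so that Txnrd1 was 24.8-fold and 21.5-fold higher by its most active entry and 15.2-fold and 13.2-fold by its least active. Its substrate gene Txn1 had 3.56, and Txnrd1 was 1.66 to 2.72 times as active over its entries. It was also 5.75 to 9.41 times as active as Gsr, which does the corresponding step for glutathione.

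Peroxiredoxins take their electrons from thioredoxin and can be lost to overoxidation. Srxn1, at chr2:151931260-151937112 on the plus strand with 2 exons, encodes sulfiredoxin, which repairs overoxidised peroxiredoxins, and it had 0.85 RPKmM (percentile 49.3). Prdx1, a peroxiredoxin of the cytosol, had 6.34, which is 7.46 times Srxn1, and Txnrd1 was 6.96 to 11.4 times Srxn1 over its entries. Of 14 thioredoxin and peroxiredoxin genes, 14 were active, with a median of 1.34 RPKmM, and 10 were at or above 0.87, where all genes gave 68.7% and 34.5%. Prdx1 and Prdx5 (5.26) were highest, and Sesn3, a sestrin, was lowest at 0.34.

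The entries of Txnrd1 differed by up to 1.64-fold, and those of Nfe2l2 by 2.19-fold. Among 1888 genes with 2 or more active entries of at least 0.1 RPKmM, the median ratio of the highest to the lowest entry was 1.10 and the upper quartile 1.36. A ratio as large as that of Txnrd1 was found in 280 of them (14.8%), and one as large as that of Nfe2l2 in 135 (7.15%). The annotation of mm9 holds 3 coding starts of Txnrd1, the second lying 25.3 kb and the third 26.4 kb downstream of the first. The table gives no positions or lengths of entries. The entries were therefore ordered by rising activity and paired with these starts from the longest gene body to the shortest. With all bases taken as mappable, activity times length of the gene body gives 372, 356 and 353, in reads relative to depth. The shorter entries would then hold 95.8% and 94.9% of the reads of the longest, and the 25.3 kb from 1 kb after the first start to 1 kb after the second, which take in the promoter-proximal 1 kb of the second, would have a density of 0.616 RPKmM. This pairing was an assumption made after the values were seen, and it places the more active entries at the later starts by construction. Not every RefSeq accession of a member has a row. The table holds 3 of 4 accessions of Txnrd1, 1 of 4 of Keap1 and 1 of 2 of Gclc. The authors kept a single transcript of those sharing start and end, and whether this rule removed the others was not tested.

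For the remaining lists the shares of all genes are again 68.7% active and 34.5% at or above 0.87. For removal of superoxide and peroxide, 5 of 5 genes were active and 2 (40.0%) at or above 0.87, with a median of 0.66 RPKmM, led by Sod2 (6.25), the manganese enzyme of mitochondria, and Sod1 (4.08), with catalase (Cat) lowest at 0.50. For NADPH supply, 8 of 8 were active and 5 at or above 0.87, with a median of 1.77, led by Idh2 at 9.93 and Pgd at 3.94, with Taldo1 lowest at 0.59. Quinone, conjugation and export genes had the lowest median of the 8 lists, 0.49, with 22 of 26 active and 8 (30.8%) at or above 0.87. Gstp1 had 11.71 and Cbr1, a carbonyl reductase, had 2.63. Gstp2 has no row, and since unique reads and mappable bases were counted, the value of Gstp1 rests on the stretches that differ from its near copies. Gsta3 was lowest at 0.01, and Gstm3, Gstm4, Abcc2 and Abcc3 were inactive.

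Over all 8 lists, 90 of 98 genes (91.8%) were active and 54 (55.1%) had at least 0.87 RPKmM, beside 68.7% and 34.5% of all genes. The median of the active ones was 1.175 RPKmM, beside 0.87 for all active genes. The member genes, with a median of 0.85, lay between the list of superoxide and peroxide removal (0.66) and that of glutathione synthesis and use (1.04).

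**Figure D3:**
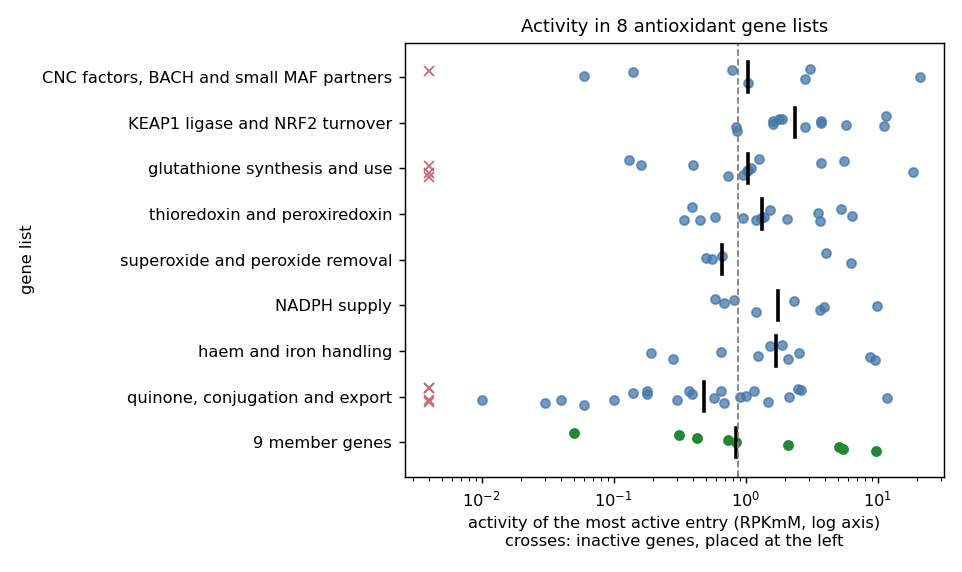
Activity in RPKmM (log axis) of the most active entry of each gene in 8 antioxidant lists and of the 9 member genes, with a black bar at the median of the active genes of each list, crosses for inactive genes and a dashed line at 0.87, the median of active entries. The members run from 0.05 to 9.69, and the lists of Keap1 ligase, NADPH supply and haem and iron genes have the highest medians (2.35, 1.77 and 1.70).

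The genes next to each member were described in turn, taking the nearest protein-coding gene with a row on each side in mm9. Of 18 such neighbours, 14 were active, with a median of 1.65 RPKmM, beside 68.7% of all genes and a median of 0.87. On the same strand as the member, 13 of 18 were active. The neighbours came from the 17737 genes matched to a single coding locus, so an unmatched gene may lie closer. The 68.7% and 0.87 cover all 20128 genes. Of 17729 matched genes searched for motifs, 12769 were active. Slc7a11 stood alone, with Pcdh18 (1.45) 608 kb away on one side and Elf2 (3.23) 812 kb away on the other, both far more active than Slc7a11 itself. Srxn1 lay between Scrt2 and Tcf15, both inactive, at 9.71 and 32.2 kb. Txnrd1 had 1700028I16Rik, inactive, at 9.71 kb and Chst11 (1.84) at 87.8 kb. The members with the most active neighbours were Nfe2l2, 6.11 kb from Hnrnpa3 (23.77), and Gclm, 4.43 kb from Dnttip2 (14.10).

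Hmox1 and Nqo1 were each less active than both neighbours. Hmox1 at 0.31 RPKmM had Tom1 (0.46) at 23.5 kb and Mcm5 (2.65), a replication helicase gene, at 8.93 kb, and Nqo1 at 0.43 had Nfat5 (3.33) at 8.71 kb and Nob1 (1.31) at 9.28 kb. Keap1 exceeded its neighbours, Pde4a (0.32) and the inactive S1pr5, and Gclc exceeded Klhl31 (0.15) and Elovl5 (1.32). Nfe2l2 and Gclm lay between theirs, the other neighbours being Agps (2.38) and Abca4 (0.04).

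**Figure D4:**
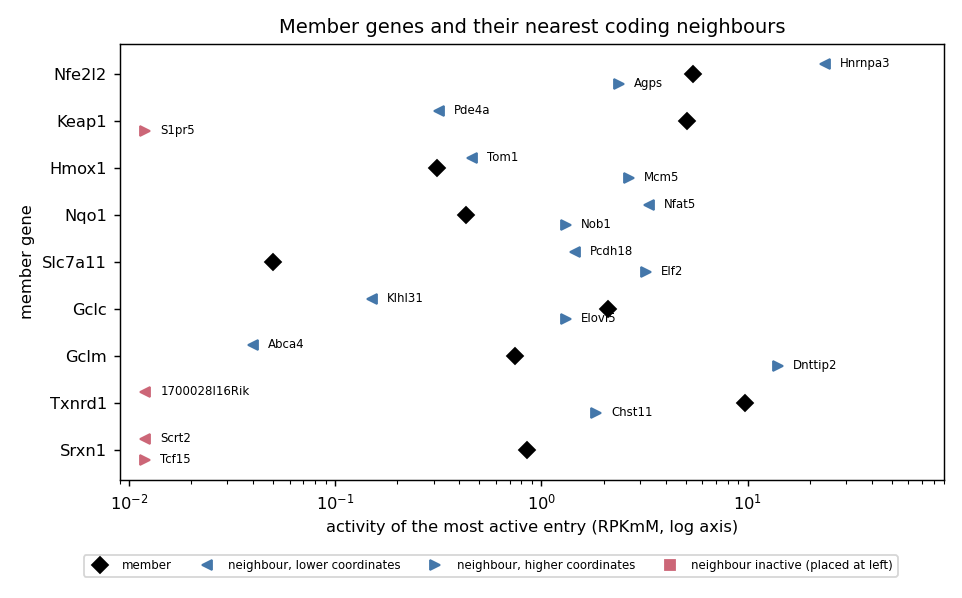
Activity in RPKmM (log axis) of each member gene (diamond) and of its nearest coding neighbours at lower and higher coordinates (triangles), with inactive neighbours in red at the left edge. Hmox1, Nqo1 and Slc7a11 lie left of both neighbours, and Keap1, Gclc, Txnrd1 and Srxn1 lie right of both.

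The DNA around each start was then read for the element that Nrf2 binds. The ARE core was searched as TGACNNNGC on both strands, from 1000 bases upstream to 100 bases downstream of the TSS of the longest coding transcript. It was found in 4 of 9 members (Nfe2l2, Slc7a11, Gclm and Srxn1), beside 34.0% of 17729 genes of the table. The sites are shown because they place the element relative to each gene. Each is read along the gene with 10 bases on either side, capitals mark the motif, and positions count from the TSS to the first base of the motif as written.
Nfe2l2, -262, chr2:75542942-75542970, minus strand: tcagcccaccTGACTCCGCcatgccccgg
Slc7a11, -871, chr3:50248388-50248416, minus strand: caaaaaatatGCCCTGTCAtctccttcct
Gclm, -134, chr3:121948331-121948359, plus strand: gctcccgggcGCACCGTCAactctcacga
Srxn1, 29, chr2:151931278-151931306, plus strand: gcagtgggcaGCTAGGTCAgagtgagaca

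In the last 3 the motif is on the strand opposite to the gene, and that of Srxn1 lies just inside the transcript. None of the 9 members had TGACTCAGC, a fully specified form of the core, in this window, and 1.35% of all genes did. From 5000 bases upstream to 500 downstream, the core was found in 8 of 9 members beside 83.2% of all genes, and TGACTCAGC in Hmox1 and Gclc, 2 of 9, beside 7.80%. Gclm had TGACTCAGC only at -3031 from its second annotated coding start, which these counts leave out. This combination of motif and window was chosen after the values were seen. The sites of Hmox1 and Gclc are shown because they place this form relative to each gene, and whether it bears on activity was not tested.
Hmox1, -3841, chr8:77613639-77613667, plus strand: gacagattttGCTGAGTCAccctctgttc
Gclc, -3790, chr9:77598542-77598570, plus strand: cgcgcagagtGCTGAGTCAcggtgaggcg
Gclc, -2017, chr9:77600315-77600343, plus strand: cagctgtcctGCTGAGTCAtgcaggtgta

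Txnrd1 had no match of the core near its first start, in either window. At its second start, 25.3 kb downstream, there were matches at -398 and -92, and counting any annotated coding start brought the members with a match to 5 of 9, beside 43.8% of all genes counted in this way. The same sites lie at -1533 and -1227 from the third start and are the nearest matches upstream of it. The pairing above places the more active entries at the later starts by construction, and which entry belongs to which start was not tested. The 250 bases before the second start are shown because they hold the match at -92, in capitals on the strand opposite to the gene.
Txnrd1, second start, chr10:82321701-82321950, plus strand: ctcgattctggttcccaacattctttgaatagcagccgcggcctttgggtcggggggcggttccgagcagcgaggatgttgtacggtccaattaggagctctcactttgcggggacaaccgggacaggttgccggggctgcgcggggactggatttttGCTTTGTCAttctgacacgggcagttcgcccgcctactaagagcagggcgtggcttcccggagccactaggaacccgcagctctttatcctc

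Further motifs were searched after the values were seen. The AP-1 motif TGACTCA, which is contained in TGACTCAGC, was found in the 1000-base window of 1 of 9 members, Srxn1, beside 15.4% of all genes, with matches at -102 and -45. TGATGCAA, the core bound by ATF4 in the response to amino acid shortage, was found in 1 of 9 members, Slc7a11, beside 2.36% of all genes, with matches at -66 and -47 in opposite orientations. The upstream 250 bases of both genes are shown with these matches in capitals, since they lie closer to the start than any match of TGACNNNGC upstream of it. Only this exact string was searched as the ARE core. Other forms of the element were not counted, and the matches shown may overlap such forms.
Srxn1, chr2:151931010-151931259, plus strand: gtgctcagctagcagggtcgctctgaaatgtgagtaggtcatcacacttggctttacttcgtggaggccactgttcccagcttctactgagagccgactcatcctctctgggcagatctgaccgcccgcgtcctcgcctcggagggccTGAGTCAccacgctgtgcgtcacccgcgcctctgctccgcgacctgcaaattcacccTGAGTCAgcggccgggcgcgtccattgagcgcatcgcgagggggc
Slc7a11, chr3:50247536-50247785, minus strand: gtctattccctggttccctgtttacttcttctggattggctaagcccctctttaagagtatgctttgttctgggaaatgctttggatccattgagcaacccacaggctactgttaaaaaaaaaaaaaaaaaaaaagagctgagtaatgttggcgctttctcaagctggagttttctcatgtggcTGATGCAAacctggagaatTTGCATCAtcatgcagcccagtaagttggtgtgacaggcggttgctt

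A match says that these letters are present and not that a factor binds, and no binding was measured in these cells.

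**Figure D5:**
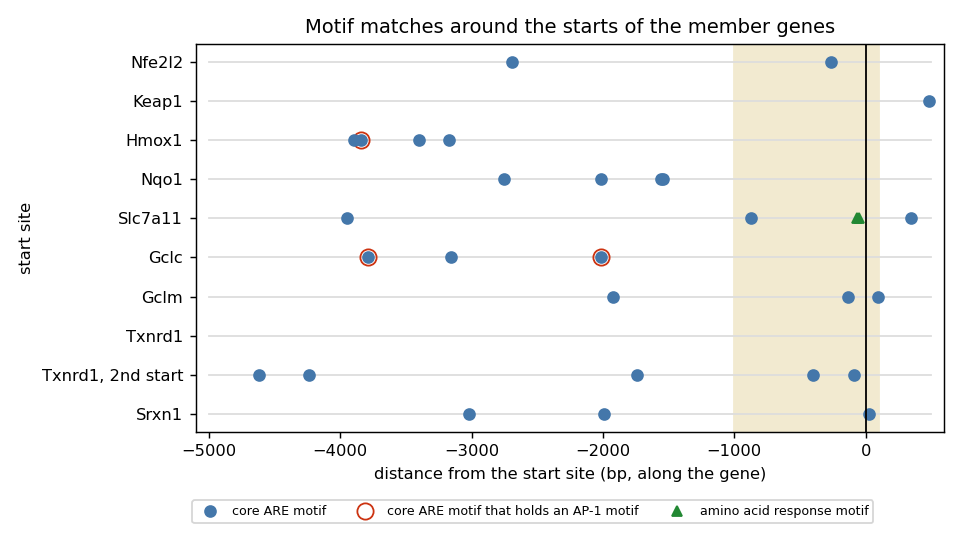
Matches of the ARE core (blue), of its fully specified form that holds an AP-1 motif (red rings) and of the amino acid response motif (green) by distance from the start in bases, for each member and for the second start of Txnrd1, with the 1000-base window shaded. Matches lie in the shaded window for Nfe2l2, Slc7a11, Gclm, the second start of Txnrd1 and Srxn1, and none lies near the first start of Txnrd1.

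The starts of the members also differed in base composition. The stretch from 250 bases upstream to 50 downstream was read, at the start of the longest coding transcript unless another start is named. The GC content was highest for Gclm (79.7%) and lowest for Slc7a11 (44.7%), though the second annotated start of Gclm had 38.3%. Over 17733 genes the median was 58.0%, with quartiles of 50.7% and 65.7%. The ratio of observed to expected CpG was 1.01 for Gclm, 0.943 for Gclc, 0.838 for Srxn1 and 0.762 for Hmox1. It was lower for Keap1 (0.610), Nfe2l2 (0.552), Slc7a11 (0.271) and Nqo1 (0.249), with a median of 0.649 over all genes. For Txnrd1 it was 0.154 at the first start, 0.963 at the second and 0.698 at the third. The 2 least active members had unlike starts by this measure, that of Slc7a11 lying below the lower quartile of all genes (0.311) and that of Hmox1 between the median and the upper quartile (0.855).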

How the data were processed

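Nuclear run-on libraries of untreated C2C12 myoblasts were sequenced by the authors. The authors aligned them to mm9 by Bowtie2, shortened failed reads by 5 bp for another attempt, kept unique reads, removed those at rRNA and tRNA repeats, and pooled the 2 libraries. The deposited activity values are RPKM over mappable bases (RPKmM), rounded to 2 decimals, with the word Inactive in the other 7208 entries. CASAVA 1.8 is named in the submitters' processing notes. Pooling hides the variation between libraries, and removed repeats or bases that cannot be mapped can leave part of a gene uncounted. The authors kept genes of at least 2 kb on chromosomes 1 to 19 and X, and a single transcript of those sharing start and end. The depth per library is not given in the table.

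Counts, medians, ratios and ranks were computed here with Python 3.11.15, numpy 2.4.6 and pandas 2.3.3, and the code was tested on simulated data. The most active entry stood for a gene. Genome sequence and annotation of mm9 (NCBIM37, GENCODE vM1) were used for positions and motifs, and 17737 of 20128 symbols matched a single coding locus, 16578 of them directly and the rest through RefSeq synonyms. The members and lists were chosen with earlier results of these data known. The genes named are all members, the 2 most active, the least active and every inactive gene of each list, the neighbours of each member, and, after their values were seen, the partners of members. Alternatives changed the entries counted, the threshold for activity, the pseudocount, the background of ranks, the motif, window and start, and the strand of neighbours.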

Additional observations from a re-analysis of the deposited data

How the results depend on the processing

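No paired analysis was possible because the 2 libraries were pooled into a single value per entry, and for the same reason neither library could be left out. The number of active member entries fell from 12 to 7 with a threshold of 1 RPKmM, and was 11 with 0.1. Their median of 2.30 RPKmM became 0.85 with the most or the least active entry per gene, and the geometric mean was 1.65 with a pseudocount of 0.01 and 1.63 with 0.001. The ratio of the highest to the lowest member gene, 193.8, became 118 with the least active entry of each gene and 162 with a pseudocount of 0.01. The median percentile of the members, 49.3, became 64.5 among all entries with inactive ones as 0 and 48.9 among entries of at least 0.01. The number of members with an ARE core, 4, became 2 in the 250-base window, 8 in the 5000-base window, 0 with TGACTCAGC and 2 with TGACTCAGC in the 5000-base window. The median of the neighbours rose from 1.65 to 1.79 RPKmM when they were taken on the same strand. The share of active genes over the lists was 91.8%, and became 92.2% by entry and 86.7% at a threshold of 0.1 RPKmM. For single members, percentiles shifted by 0.906 to 25.5 points among all entries, most for Slc7a11 (14.7 to 40.1), and by less than 1 point with the other backgrounds. For single lists, the largest change in the share of active genes was for quinone, conjugation and export, from 84.6% to 69.2% at a threshold of 0.1 RPKmM. Of 26 ratios between genes, 14 moved by over 1.5 times with another entry, and 3, of Nfe2l2 to Keap1, Bach1 and Mafg, turned direction. The order of the genes by their most active entry rests on a pooled value each, reads per entry are unknown, and a value such as 0.05 is known only to within 10%.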
